A study of Mus musculus with 24 samples.

Results

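Organs whose lining epithelium comes from endoderm (liver, lung and stomach) were compared with organs that arise from mesoderm (aorta, heart, kidney and spleen), in SENCR-BAC mice. These transgenic mice hold a large human DNA clone that includes SENCR, a non-coding transcript known from vascular cells. The organs were chosen by name, as 9 libraries of 3 endoderm-lined organs and 12 libraries of 4 mesodermal organs, 21 of the 24 libraries of the series. Brain, which comes from ectoderm, was the eighth organ, and its 3 libraries were left out of the contrast. Every library came from transgenic animals, and no group without the transgene is among the samples used here. The labels state neither strain, age nor sex, and nothing says which libraries came from the same animal, so p-values measure the spread between libraries of an organ.

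As background, the gut tube and the buds that form lung and liver are epithelial layers of endoderm wrapped in mesenchyme from mesoderm. Whole organs therefore hold both germ layers, and an endoderm-lined organ also carries vessels, muscle and blood cells. FOXA factors are forkhead proteins that can bind their sites in compacted chromatin, and they are needed early for foregut endoderm to become competent to form liver and lung. Kidney tubules are epithelia too, but of mesodermal origin, which makes kidney the organ that separates an epithelial from an endodermal pattern. In bulk tissue, fewer cells of a type and less RNA per cell cannot be told apart.

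Values were FPKM, fragments scaled by transcript length and library size, and were analysed as log2(FPKM + 1). Mouse reads had been counted on a human genome, so levels are compared between organs within a gene and not between genes. Assigned reads ran from 193902 to 496608 per endoderm-lined library (median 292609) and from 320701 to 607972 per mesodermal library (median 372749). Of 7493 genes in the table, 3864 reached at least 1 FPKM in at least 3 of the 21 libraries and were tested. Markers of the labelled organs were highest where they belong for 9 of 10 cardiomyocyte genes, 8 of 8 blood and lymphoid genes in spleen, 5 of 6 tubule genes in kidney, 6 of 9 smooth muscle genes in aorta, 4 of 4 stomach genes, 2 of 2 lung genes and 5 of 8 hepatocyte genes. Only listed genes with a mean of at least 1 FPKM in some organ were counted. The table held 2 of 12 listed lung genes, 4 of 15 stomach genes and 14 of 16 hepatocyte genes. Of these 14, 7 were at 0 in all liver libraries. The hepatocyte genes ALB and APOA1 were not highest in liver, with differences between the sides of -0.88 and -0.51. The general epithelial markers EPCAM and KRT18 were near 0 in all organs, with 1 and 4 reads over the 24 libraries, so the table could not be used to measure epithelial content through them.

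A gene was called shared by a side if it was higher in every organ of that side than in every organ of the other. This meant all 12 organ pairs, each differing by 1 or more in log2(FPKM + 1) with a limma p, Benjamini-Hochberg adjusted within the pair, under 0.05. Only 3 of 3864 genes (0.0776%) met this for the endoderm-lined organs: FOXA1, FOXA2 and EPB41L4B. For the mesodermal organs the count was 0 of 3864 genes (0.0%), and it was also 0 at an unadjusted p under 0.05 in limma and 0 with limma voom on read numbers recovered from the FPKM. FOXA1 and FOXA2 were members of the list of endoderm factors, and EPB41L4B was on no list of developmental regulators.

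The mouse promoters of the paired forkhead genes are shown because these genes alone met the rule under every processing that was tried. They are printed from RefSeq on build GRCm38.p6, 5′ to 3′ on the minus strand, with capitals for motif matches on either strand. The motif of forkhead factors was searched as TGTTTAC. The E-box bound by SNAI and other zinc finger factors was searched as CACCTG. For the GC box of SP factors the letters were GGGCGG, and CCAAT stood for itself. The TATA box was searched as TATAAA and part of the HNF1 site as GTTAAT. None of these motifs overlaps another in the stretches shown. The Foxa1 stretch is chr12:57546246-57546361, which ends with the motif match that crosses the start of an annotated transcript. The Foxa2 stretch is chr2:148046970-148047219, before the first of 3 starts of that gene.
Foxa1: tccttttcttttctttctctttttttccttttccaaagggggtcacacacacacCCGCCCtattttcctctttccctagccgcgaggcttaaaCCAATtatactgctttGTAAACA
Foxa2: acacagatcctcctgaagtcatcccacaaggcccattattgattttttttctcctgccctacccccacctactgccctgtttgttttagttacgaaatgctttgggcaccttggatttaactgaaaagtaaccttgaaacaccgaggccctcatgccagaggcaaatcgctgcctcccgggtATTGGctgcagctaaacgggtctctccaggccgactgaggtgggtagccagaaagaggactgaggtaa
The Foxa1 window held a forkhead match at position -141 from the start and a CCAAT match at -157. It also held 3 GC boxes, the first of them in the stretch shown, and an E-box at -23, outside that stretch. The Foxa2 window before the first start held a CCAAT match at -68 and none of the other motifs. Before the second Foxa2 start there were 2 GC boxes. Before the third there was a GC box at -239, a TATA box at -208 and the part of the HNF1 site at -176. Of 32851 mouse promoter windows of 250 bases, 3.2% held the forkhead motif, 33.8% CCAAT, 32.7% the GC box, 17.2% the E-box, 12.4% the TATA box and 6.4% the part of the HNF1 site. A match describes letters only, and neither binding nor accessibility was measured in these libraries.

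FOXA1, the forkhead factor shared by foregut endoderm, liver, lung and glandular epithelia, was at 24.5, 29.3 and 60.1 FPKM in the 3 liver libraries. Lung libraries had 42.9, 23.0 and 30.5 FPKM of FOXA1, and stomach libraries 167, 140 and 174. In the mesodermal organs FOXA1 was at 0 in every aorta, heart and spleen library, and kidney had 0, 0.727 and 0 FPKM. Every endoderm-lined library was thus above every mesodermal one, and stomach stood above liver and lung, whose libraries overlapped. Lung, the lowest of the endoderm-lined organs with 32.1 ± 10.1 FPKM (SD, n = 3), was at least 57.9-fold higher than aorta, 49.1-fold higher than heart and 69.7-fold higher than spleen, taking 3 reads over the organ's 3 libraries as the limit for an organ without a read. These limits cover counting error only. The mean of the sides differed by 5.77 ± 0.18 (SE; limma adjusted p = 7.11e-14) in log2(FPKM + 1), a size that depends on the pseudocount of 1.

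FOXA2, a close relative of FOXA1 that is also needed for node, floor plate and endoderm, was more even among the endoderm-lined organs. It was at 53.9, 45.6 and 63.7 FPKM in liver, 29.1, 39.5 and 37.7 in lung and 58.3, 44.8 and 71.3 in stomach. Liver and stomach libraries overlapped, and lung was the lowest. Aorta, heart and kidney had no FOXA2 read in any library, and spleen had 0.694, 3.77 and 0 FPKM, the highest of these standing on few reads. Lung FOXA2 (35.4 ± 5.54 FPKM, SD, n = 3) was at least 41.0-fold higher than aorta, 34.7-fold higher than heart and 32.5-fold higher than kidney. The mean of the sides differed by 5.35 ± 0.22 (SE; limma adjusted p = 3.1e-12).

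Side accounted for 97.9% of the variance between the 7 organ means for FOXA2 and for 94.4% for FOXA1, and no other gene reached 90%. Over all genes tested the median of this share was 7.75%, and it was at least 50% for 121 genes (3.13%). With organs as the units, 3 against 4, the smallest p of an exact permutation test, two-sided by doubling the one-sided p, is 0.0571. FOXA1 took this value, as any gene must whose organ means do not overlap between the sides. The outcome was thus fixed by the choice of FOXA1, and no other gene was tested over organs. Brain, outside the contrast, had 0.401, 0 and 0 FPKM of FOXA1 and 0, 0.565 and 0 FPKM of FOXA2, at the level of the mesodermal organs.

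**Figure D1:**
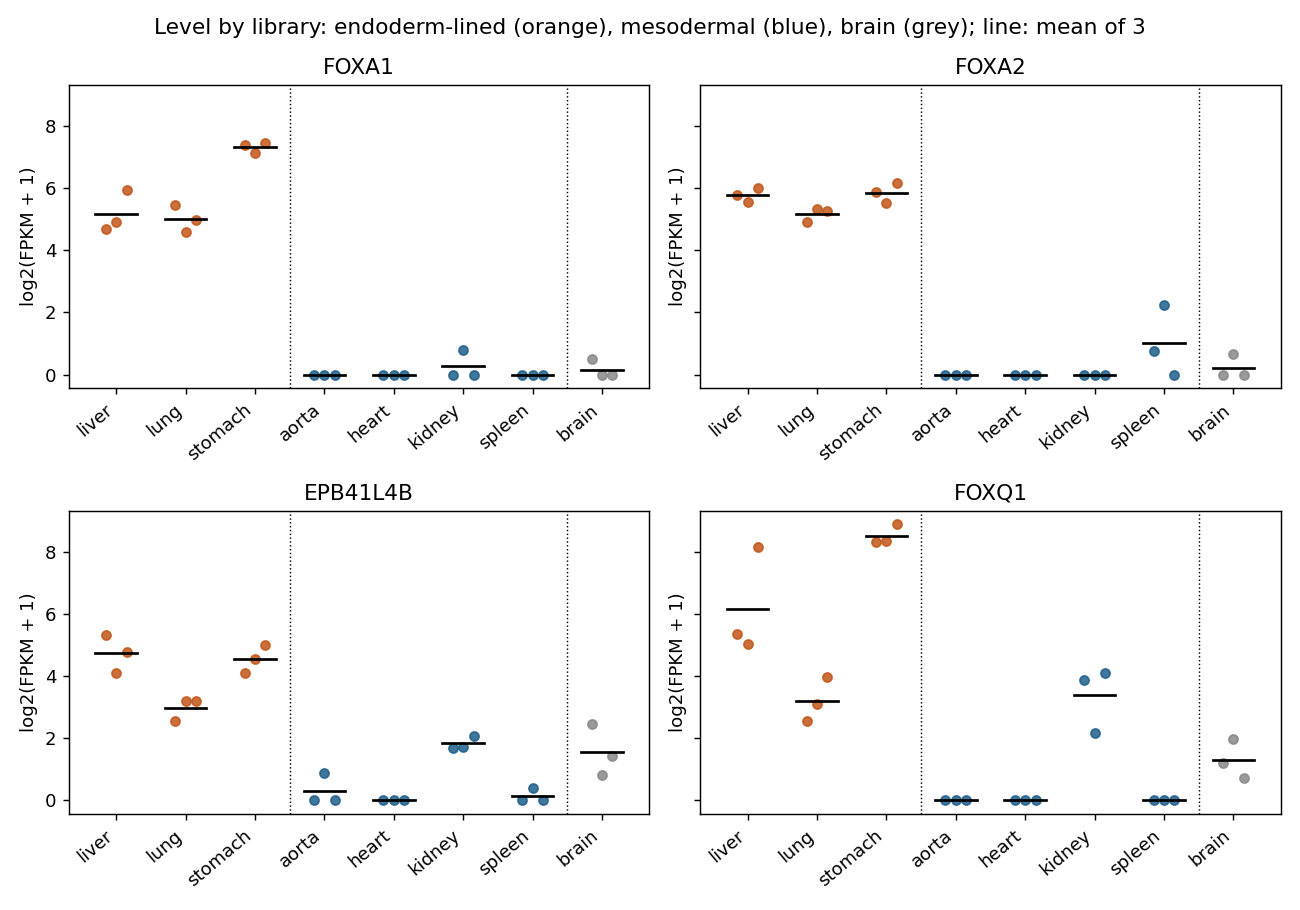
Level of FOXA1, FOXA2, EPB41L4B and FOXQ1 as log2(FPKM + 1) on the vertical axis, 1 point per library and a line at the mean of the 3 libraries of each organ, with brain in grey. FOXA1 and FOXA2 lie near 0 in the mesodermal organs and brain, EPB41L4B is low but present in kidney and brain, and FOXQ1 in lung overlaps FOXQ1 in kidney.

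EPB41L4B, a FERM-domain protein of the cortex beneath the plasma membrane, completed the shared genes with smaller differences. Its level was 39.0, 16.1 and 26.7 FPKM in liver, 4.81, 8.20 and 8.20 in lung and 16.0, 22.3 and 31.1 in stomach. Kidney had 2.23, 2.31 and 3.20 FPKM of EPB41L4B, aorta 0, 0.860 and 0, spleen 0, 0.321 and 0, and heart none. All 9 endoderm-lined libraries were above all 12 mesodermal ones, and lung and kidney were the nearest organs. The difference of EPB41L4B between the sides was 3.52 ± 0.20 (SE; limma adjusted p = 2.46e-10), but lung exceeded kidney by only 1.15 ± 0.37 (SE; adjusted p = 0.0238 within that pair). That pair ended the call of EPB41L4B with a pseudocount of 0.1 (adjusted p = 0.219), with voom (0.111), and without kidney replicate 1 (0.0739), kidney replicate 2 (0.0696), lung replicate 2 (0.0848) or lung replicate 3 (0.0843). Its gap also fell under 1 with a pseudocount of 5 (0.66) and with quantile normalization (0.96).

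FOXQ1, a forkhead gene of epithelia including gastric surface cells, came nearest to the rule with 11 of 12 pairs. It was at 321, 322 and 471 FPKM in stomach, 39.6, 31.5 and 283 in liver and 4.89, 7.57 and 14.8 in lung. No aorta, heart or spleen library had a FOXQ1 read, whereas kidney had 13.6, 3.52 and 16.2 FPKM. Lung and kidney overlapped, with a difference of -0.17 between their means, and liver replicate 3 stood far above the other liver libraries. The mean of the sides differed by 5.12 ± 0.33 (SE; limma adjusted p = 1.78e-09), and leaving kidney out made FOXQ1 a shared gene.

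A further 5 genes passed in 10 of 12 pairs, and the pairs that failed involved aorta or kidney in each. ALCAM, an adhesion molecule of the immunoglobulin family, was at 77.3 ± 4.09 FPKM in lung, 28.6 ± 7.07 in stomach and 13.3 ± 12.2 in liver (SD, n = 3), and liver was not separated from aorta (7.96 ± 3.55) or kidney (7.35 ± 2.95). MAGI1, a scaffold of tight junctions, failed for liver and lung against kidney. SYTL4, an effector of RAB27 in granule release, failed for liver and lung against aorta, and ADIPOR2, an adiponectin receptor, for lung against aorta and kidney. TLE1, a Groucho co-repressor, failed for lung and stomach against aorta. In this group every mean lay higher in endoderm-lined than in mesodermal organs except for TLE1, which was 0.33 lower in stomach than in aorta.

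Kidney also withheld the rule from PTPRF, a receptor tyrosine phosphatase of epithelial junctions, which was even across 4 organs. PTPRF was at 72.0 ± 5.40 FPKM in liver, 69.1 ± 4.39 in lung, 48.6 ± 2.72 in stomach and 52.0 ± 5.94 in kidney (SD, n = 3). Aorta (4.12 ± 1.16), spleen (2.86 ± 1.14) and heart (1.13 ± 1.08) were far lower. SLC22A23, a transporter-like gene, was also at 18.1 ± 3.47 FPKM in kidney (SD, n = 3) and 12.9 to 26.6 as a mean in the endoderm-lined organs, and both genes were called in the 9 pairs without kidney. SOCS3, the feedback inhibitor of JAK-STAT signalling, was instead held back by spleen: it was at 43.5 to 78.1 FPKM as a mean in the endoderm-lined organs, 44.1 ± 20.8 in spleen and 4.19 to 9.60 in aorta, heart and kidney. STAT3, a target of that feedback, had organ means that did not overlap between the sides, 12.8 to 26.2 FPKM against 7.13 to 8.85 (difference 1.06 ± 0.23 SE, limma adjusted p = 0.00178).

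Averaged over the organs of a side, many more genes differed than were shared. In limma, 250 genes (6.47%) were higher in the endoderm-lined organs and 122 (3.16%) in the mesodermal ones, each with a mean difference of 1 or more and an adjusted p under 0.05. This split moved with scaling, to 179 and 170 with median-ratio size factors and 191 and 162 with quantile normalization. Each of the 12 pairs alone called 5.64% to 25.8% of genes higher and 4.81% to 19.4% lower. Calls of the mean often rested on some of the pairs: the 250 genes were called in a median of 6 of 12 pairs, 19 of them in 9 or more, and 77 had at least 1 pair called the opposite way. The 122 genes had a median of 5 pairs, 6 of them in 9 or more, and 46 had a pair called the opposite way. For the 250 genes, the endoderm-lined organ with the lowest mean was lung for 104, liver for 92 and stomach for 54, and the highest mesodermal organ was kidney for 102 and aorta for 73.

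**Figure D2:**
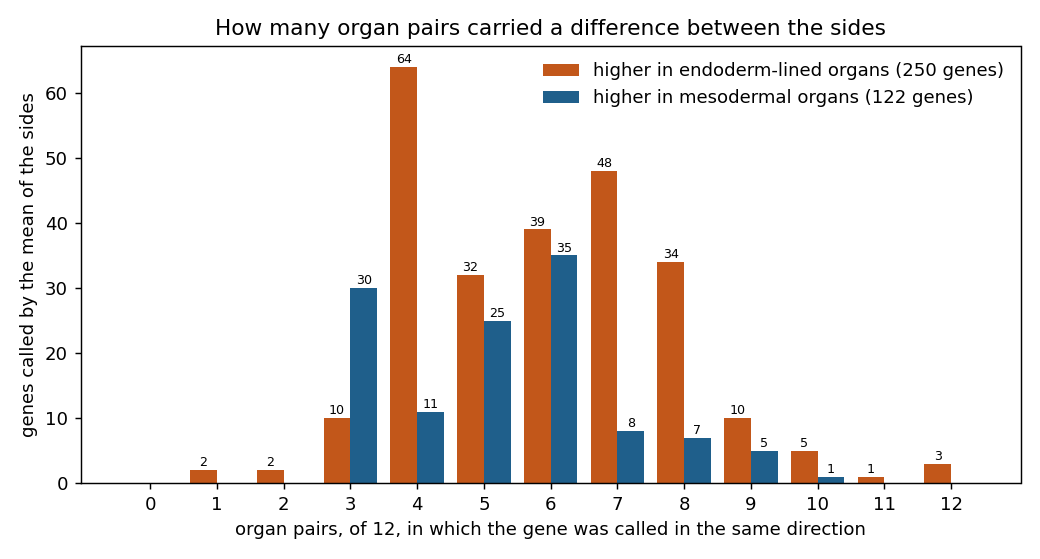
Number of genes called by the mean of the sides (vertical axis) against the number of the 12 organ pairs in which the same gene was called in the same direction (horizontal axis), in orange for 250 genes higher in endoderm-lined organs and in blue for 122 higher in mesodermal organs. The orange bars peak at 4 pairs, with 64 genes, and 3 genes stand at 12.

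Counting organs in place of pairs, 296 genes were higher in at least 1 endoderm-lined organ than in all 4 mesodermal organs, and 26 in at least 2. Liver alone accounted for 103 of them (liver in all for 116 genes, 3.0%), lung alone for 92 (in all 110, 2.85%) and stomach alone for 75 (in all 99, 2.56%). Lung and stomach shared 13 genes that liver did not. These included SOX2 and SHH of the anterior gut tube, the Krüppel-like factor KLF5 and the desmosomal plakophilin PKP1. Among them were also the muscle myosins MYH4 and MYH13, and PBX3, which was on the list of mesoderm regulators. Liver and stomach shared 8 without lung: FOXQ1, SOX9, BMP2, the gap junction gene GJB1, ADIPOR2, SELENOI, HS3ST3A1 and SLCO5A1.

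The largest differences of the means among genes that were not shared showed the same reliance on 1 or 2 organs. NRN1, a membrane-anchored neurite growth factor, was at 4160, 4880 and 4010 FPKM in liver but at 60.9 to 95.7 in lung, which overlapped 49.7 to 81.8 in aorta and 79.8 to 170 in heart. GJB1, connexin 32 of hepatocyte gap junctions, was at 455 ± 47.5 FPKM in liver and 79.8 ± 20.5 in stomach (SD, n = 3), with 1 lung library above 0 (1.86) and kidney between (3.98 to 13.9). HAO1, a liver peroxisomal glycolate oxidase, was at 1770 to 2060 FPKM in liver, and outside liver only stomach replicate 3 (16.9) and aorta replicate 1 (2.74) were above 0. CKMT1B, a mitochondrial creatine kinase, was at 1130 to 1450 FPKM in stomach and 0 in liver, with kidney at 63.2 to 113. CKMT1B has a near-identical human copy, so its reads may have been divided between the copies, and its call ended without stomach (difference 0.66).

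Among endoderm and gut tube transcription factors, 24 of 36 listed genes were in the table, 15 passed the filter and 6 of those passed within both sides. limma called 11 of the 15 higher in the endoderm-lined organs, beside 6.47% of all genes, with a median difference of 1.63 beside 0.06 for all genes. A gene that passed only through the side where it was high had to differ, so these counts describe the list and do not test it. Beside FOXA1, FOXA2 and FOXQ1 the called genes passed in 4 to 8 of the 12 organ pairs, NKX2-1 and ONECUT1 in 4 each. NKX2-1, which specifies lung and thyroid, was at 216, 207 and 225 FPKM in lung and 0 in the other 6 organs. ONECUT1, a hepatic and pancreatic factor, was at 11, 38.5 and 35.6 in liver, and SOX9 was at 4.59 to 7.82 in stomach, 0, 3.55 and 1.31 in liver and 0 elsewhere in the contrast. SOX2 was at 4.13 to 4.81 in lung and 2.72 to 8.85 in stomach, with 0 in liver and all mesodermal organs. KLF5 was above 0 in all lung and stomach libraries and in 1 of 3 liver libraries (4.38).

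Some listed endoderm factors did not follow the sides. FOXP2 was called higher by the mean (difference 1.73 ± 0.25 SE, limma adjusted p = 2.6e-05), yet its highest organ was aorta, with 293, 355 and 343 FPKM against 71.0 to 116 in stomach. Kidney (1.11 to 3.61) and spleen (0 to 5.01) were lowest, and the difference was 0.95 without kidney and 0.90 without spleen, which ended the call. KLF4 was called (1.61 ± 0.29 SE, adjusted p = 0.000247) although liver had no read of it, and the call ended without stomach (0.05) or lung (0.83) and with a pseudocount of 0.1 (0.79). FOXP1 (0.53), PROX1 (0.36) and GATA6 (0.43) were not called. PROX1, a liver and lymphatic factor, was highest in liver (mean 6.29 in log2(FPKM + 1)), but higher in heart (22.6 to 32.0 FPKM) than in lung or stomach. HNF4A and GATA4 were in the table but under the filter, with 1 to 2 reads each over the 24 libraries.

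Epithelial adhesion, junction and keratin genes were poorly represented, with 27 of 58 in the table, 5 past the filter and 4 past it within both sides. limma called 3 of the 5 higher, beside 6.47% of all genes, and none of them was shared. TJP1, the tight junction scaffold ZO-1, was at 72.6 to 80.7 FPKM in lung and 17.4 to 36.8 in stomach, but liver (12.5 to 19.1) overlapped aorta, heart and kidney. JUP, plakoglobin, was at 17.6 to 23.1 in lung and 10.9 to 14.1 in stomach, while liver (0 to 2.25) overlapped aorta, heart and spleen and lay below kidney (2.92 to 6.04). ESRP1, an epithelial splicing regulator, was at 53.6 to 93.6 in stomach and 7.15 to 19.0 in lung, and its kidney libraries (5.54 to 6.57) were all above liver (0 to 1.18). Thus no liver library of these 3 genes was above all mesodermal libraries. The calls of TJP1 and JUP ended without lung (differences 0.58 and 0.69) and with a pseudocount of 5, that of TJP1 also without spleen (0.89) and that of JUP without stomach (0.99). Median-ratio scaling left 2 of the 5 called (179 of 3864 genes in all), as did a pseudocount of 0.1 (339 of 3864). DSP, desmoplakin, was not called (0.18) and had its highest mean in heart (17.7 FPKM).

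**Figure D3:**
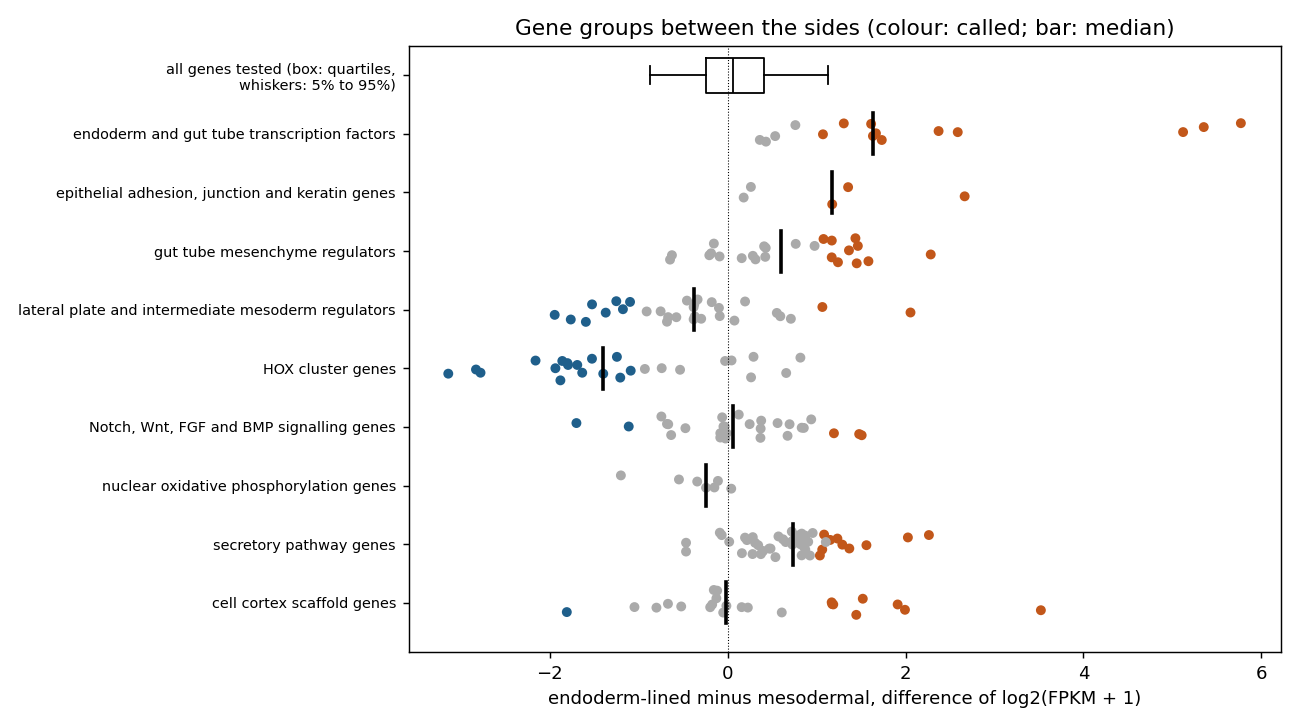
Difference of the means of the sides on the log2(FPKM + 1) scale (horizontal axis) for the genes of 9 groups (rows), with points in orange or blue where called, a bar at each group's median, and a box (quartiles, whiskers from 5% to 95%) for all 3864 genes. The secretory and cell cortex groups were put together after values had been seen. Endoderm factors lie right of 0 and HOX genes mostly left of it, and the signalling genes are centred near 0.06, as are all genes.

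Of the gene lists examined here, the HOX genes held the most calls on the mesodermal side. They encode homeodomain proteins that give position along the body axis, and a cluster's higher-numbered genes are active further to the rear. The table held 30 HOX genes, of which 25 passed the filter, 15 of them within both sides, and limma called 16 of the 25 higher in the mesodermal organs, beside 3.16% of all genes, with a median difference of -1.40. All 16 belonged to paralog groups 6 and above, where 17 genes had been tested. Among the 8 tested genes of groups 1 to 5 none was called in limma (2 of all 25 genes were higher in the endoderm-lined organs at an unadjusted p under 0.05, and 2 were called higher with voom), and their median difference was 0.15.

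Kidney and aorta carried this pattern, not the mesodermal organs as a whole. Kidney was higher than all 3 endoderm-lined organs for 17 of 25 HOX genes, beside 3.34% of all genes, and aorta for 13, beside 3.67%. Heart and spleen were higher for none of the 25 in limma, beside 3.44% and 2.61% of all genes. HOXC10 was at 159, 133 and 157 FPKM in kidney and 39.0, 30.6 and 51.3 in aorta, without a read in any library of the other organs. HOXC9 had the same organs, with 73.1 ± 17.5 in kidney (SD, n = 3) and 27.8 to 32.7 in aorta. HOXB9 was at 106 to 116 in kidney and 17.7 to 32.4 in aorta, and apart from 1 stomach (1.16) and 1 spleen library (0.636) it was at 0 elsewhere in the contrast. Of the 14 genes higher in both aorta and kidney, and in no other mesodermal organ, than in all endoderm-lined organs, 12 were HOX genes and the others were FBLN5 and PKP4.

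Anterior HOX genes crossed the sides. HOXA5, required for lung development, was at 675, 755 and 726 FPKM in lung, 356 to 435 in aorta and 151 to 193 in kidney, but only 1.68 to 6.83 in heart. Its difference between the sides was -0.03 ± 0.34 (SE), the lung and aorta values offsetting each other. HOXB4 was alike in lung (78.8 to 94.2 FPKM), aorta (67.4 to 111) and kidney (67.7 to 111), and HOXA7 was higher in lung (23.6 to 33.0) than in spleen (0.816 to 10.4) or heart (0 to 1.39). Liver and heart shared low levels from opposite sides, with 20 and 21 of the 30 HOX genes at 0 in all 3 libraries. Without kidney the 16 calls became 4 lower and 3 higher of 22 genes, and without aorta 12 lower and 4 higher of 24.

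**Figure D4:**
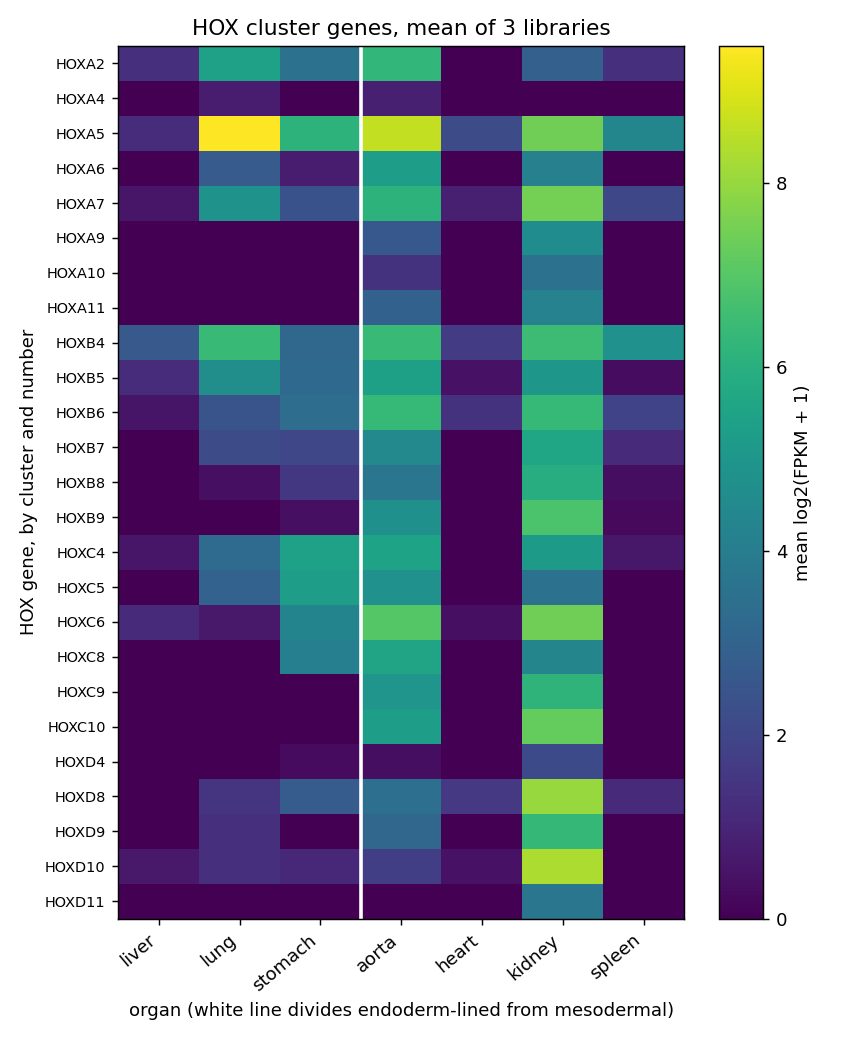
Mean log2(FPKM + 1) of the 3 libraries of each organ (columns) for 25 HOX genes that passed the filter (rows, by cluster and number), with brighter colour for higher levels. Kidney is bright down to the high-numbered genes of each cluster and aorta for most of them, lung and stomach mainly for the low-numbered ones, and liver, heart and spleen are dark for most.

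Regulators of lateral plate and intermediate mesoderm were high in different organs of the mesodermal side. Of 51 listed genes, 37 were in the table, 30 passed the filter and 19 passed it within both sides, and limma called 8 of the 30 higher in the mesodermal organs, beside 3.16% of all genes, with a median difference of -0.38. The 2 genes called higher in the endoderm-lined organs, IRX5 and BMP2, were 2 of 30, near the 6.47% of all genes. Aorta and kidney were each higher than all 3 endoderm-lined organs for 5 of the 30 (16.7%, beside 3.67% and 3.34% of all genes). Spleen was higher for 2 (6.67%, beside 2.61% of all genes) and heart for none, near its 3.44% of all genes. In the other direction, lung and stomach were each higher than all 4 mesodermal organs for 2 of the 30 (6.67%, beside 2.85% and 2.56% of all genes). Liver was higher for 1 (3.33%), near its 3.0% of all genes. PAX2, PAX8 and EMX2, factors of the kidney's intermediate mesoderm, were at 32.5 to 42.2, 15.6 to 25.4 and 72.0 to 94.3 FPKM in kidney, and the other organs of the contrast were at 0 except for 1 aorta library of PAX2 (0.472). TWIST1, a mesenchymal bHLH factor, was at 99.8 to 121 in aorta, and its 18 other libraries reached 8.92 at most. PRRX1, a mesenchymal homeobox gene, was at 71.4 to 112 in aorta and 47.4 to 72.4 in heart, but lung (13 to 31.2) was above kidney (0.720 to 6.65). MEF2C, a muscle and lymphoid factor, was the most widespread with 8 of 12 pairs, and lung (44.6 to 64.5) was again above kidney (14.1 to 16.3).

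Genes close to a mesodermal counterpart of FOXA1 failed through an organ. FBLN5, an elastic fibre protein, was called in 10 pairs and was at 204 to 255 FPKM in aorta, but lung (33.0 to 44.0) was above heart (7.54 to 19.0) and spleen (9.12 to 17.0). CYFIP2, part of the WAVE actin complex, was at 16.3 to 35.2 in heart, kidney and spleen but at 0 to 0.336 in aorta. WNK1, RHOQ and HDAC9 were called in 9 pairs each. Organ means that did not overlap were found for 20 genes (0.518%) on this side, with a largest gap of 0.81, for TRMT112, which rested on 14 reads in all. Of these 20 only SSBP2, MARCHF3 and PDE2A were also called by the mean.

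On the endoderm-lined side 75 genes (1.94%) had organ means that did not overlap, with a median gap of 0.14, and 35 of them were called by the mean. Every library was separated for 5 genes (0.129%): FOXA1, FOXA2, EPB41L4B, CASK and SLC44A1. CASK, a membrane scaffold kinase of synapses and epithelia, was at 48.8 to 66.5 FPKM in liver and lung and 95.9 to 124 in stomach, and aorta came close with 35.8 to 48.2. SLC44A1, a choline transporter, had means of 41.5 to 63.5 in the endoderm-lined organs and 18.8 to 34.2 in the others. Brain was at or below the highest mesodermal organ for 50 of the 75 genes and at or above the lowest endoderm-lined organ for 22, CASK among them at 76.5 to 80.4.

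Gut tube mesenchyme regulators, which act in the mesodermal wrapping of the endoderm, rose in part with the endoderm-lined organs. Of 36 listed genes, 30 were in the table, 24 passed the filter and 14 passed it within both sides, and limma called 10 of the 24 higher in the endoderm-lined organs, beside 6.47% of all genes (median difference 0.60), with none shared by all 3, as for all but 0.0776% of genes. TBX4, a regulator of lung and limb mesenchyme, was at 11.2, 28.2 and 19.4 FPKM in lung with 1 stomach library above 0 (1.68), and BARX1, the stomach mesenchyme homeobox gene, at 9.05, 35.8 and 22.1 in stomach only. SHH, the epithelial ligand that signals to this mesenchyme, was at 0.549 to 2.04 in lung and 3.05 to 4.69 in stomach and at 0 in liver and all mesodermal organs. PTCH1, its receptor and target, was at 16.1 to 19.4 in lung, while liver (6.80 to 7.55) and stomach (9.16 to 11.8) overlapped or lay below aorta (9.67 to 14.7). The most abundant members MEIS1 (0.28), BMP4 (-0.16), NR2F2 (0.77) and ZEB2 (-0.63) did not reach a difference of 1.

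Notch, Wnt, FGF and BMP signalling genes showed no common direction, with 3 of 28 tested genes higher (6.47% of all genes), 2 lower (3.16% of all genes) and a median difference of 0.06 (0.06 for all genes). SMAD6, an inhibitor of BMP signalling, and BMPR2, its type II receptor, were called and were highest in lung (188 to 219 and 40.4 to 47.8 FPKM), and WNT11 was highest in stomach (35.4 to 51.7). SFRP1 and SFRP2, secreted Wnt inhibitors, were lower by the mean of the sides but not in every organ. SFRP2 was at 319 to 473 in aorta, yet lung (12.1 to 21.7) and stomach (7.42 to 13.7) lay above heart (1.43 to 5.56) and spleen (0 to 1.3), with 4 pairs called higher and 5 lower. SFRP1 in stomach (20.9 to 38.3) likewise lay above heart and spleen (5.59 to 14.1). CTNNB1, beta-catenin, ID2, SMAD7 and LRP6 differed by 0.56, 0.67, 0.38 and 0.25. Of 7 tested nuclear genes of oxidative phosphorylation limma called none, near the 6.47% of all genes called higher and 3.16% called lower. At an unadjusted p under 0.05 in limma, 3 of the 7 were lower. ATP5F1B, of the ATP synthase, was at 1070 to 1260 FPKM in liver and 865 to 1020 in stomach but 200 to 266 in lung, and heart (1980 to 2270) and aorta (214 to 295) differed as widely on the other side, as did NDUFS1 of complex I.

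Across the 3864 genes, organs of a side were not closer to each other than to organs of the other side. Pearson's r between organ means across genes, which are not independent replicates, was 0.840 to 0.911 within the endoderm-lined organs, 0.827 to 0.865 within the mesodermal organs and 0.812 to 0.920 between the sides. The highest value was that of lung and aorta. The closest organ was on the other side for 6 of the 7 organs, kidney for liver and stomach for kidney among them, and only stomach was closest to an organ of its own side, lung (0.911). These r describe the organs and share the genes and the scaling of each library.

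**Figure D5:**
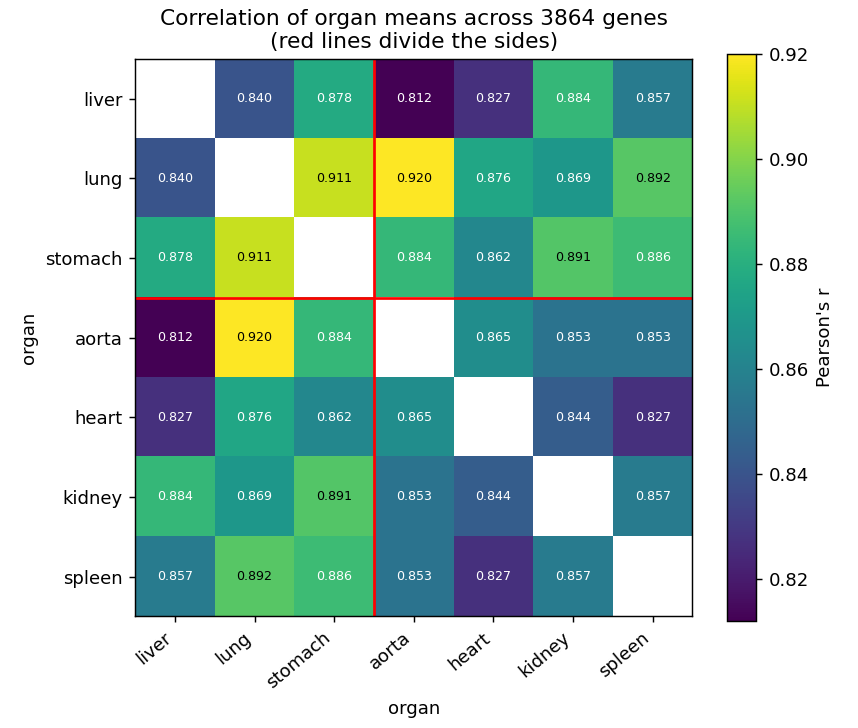
Pearson's r between organ means of log2(FPKM + 1) across 3864 genes, organs on both axes, with red lines between the sides. Lung with aorta is the brightest cell (0.920) and liver with aorta the darkest (0.812), both between the sides.

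Markers of other cell types moved with the sides in places. Skeletal muscle genes were called for 3 of 4 tested members (ACTA1, MYH1, MYH4) of 9 in the table, beside 6.47% of all genes, with levels in lung and stomach. The list's summed level was 41.9 to 129 FPKM in lung and 1.20 to 57.2 in stomach, against 0 in all liver and kidney, at most 2.86 in aorta and 23.5 to 42.6 in heart, and the fast myosin MYH4 was at 0 in every mesodermal library. Mitochondrially encoded genes ran from 4.59 to 25 FPKM in sum in the endoderm-lined libraries and were at 10.8, 582 and 838 in aorta, and without aorta replicates 1 and 3 the counts of genes were 245 and 117 with the same 3 shared genes. The 10 genes of the smooth muscle list, some of which heart muscle also expresses, summed to 597 to 1620 FPKM in lung and stomach, 34.2 to 60.8 in liver, 1220 to 1510 in aorta, 18900 to 21100 in heart and 79.7 to 119 in kidney and spleen. The part of these cell types in the results for the sides was not tested.

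SENCR, the transcript the transgene was made to carry, differed between the sides in the mean. It was at 7.37 to 17.9 FPKM in liver, 4.64 to 14.3 in stomach and 32.6 to 68.4 in lung, against 14 to 102 in the mesodermal libraries (difference -1.07 ± 0.28 SE, limma adjusted p = 0.00661), and lung overlapped all 4 mesodermal organs. The call ended without stomach (-0.62), liver (-0.81), kidney (-0.87) or heart (-0.97), among others. FLI1, the gene on the opposite strand, had a difference in the same direction that missed the minimum size (-0.92, limma adjusted p = 0.024). Reads of the pair may not be separate, since how strand was treated in counting is unknown, and with mouse reads counted on the human genome the FLI1 values may hold reads of the mouse gene, of the human clone or of both.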

How the data were processed

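Bulk RNA-seq of TRIzol RNA (VAHTS Universal V10 kit, per the labels' protocols) was processed with fastp, HISAT2 and HTSeq, and human GRCh38.p13 is the genome named, per the submitters' processing notes, which give no versions. Annotation and strand setting: not given in the sources used here. As deposited by the authors, the values are FPKM for 7493 genes in 24 libraries. Read numbers, recovered because 100% of FPKM values were whole multiples of 1 read (tolerance 0.02 reads), served for depth, limits and limma voom only. limma 3.58.1 (R 4.3.3) was fitted to log2(FPKM + 1) of 21 libraries with a mean-variance trend, after a filter at 1 FPKM in 3 libraries; 3864 genes were tested, Benjamini-Hochberg adjusted within each contrast. Each organ had equal weight. A call needed a difference of 1 or more with an adjusted p under 0.05. The fit was tested on simulated data. Named genes were up to 15 shared genes by gap, the 5 largest other differences each way, every shared and the 4 most abundant members of each role list, SENCR and FLI1; others are examples named after their values were seen. A few genes that the rule or the counts take in are not reported here. Members and lists were chosen with earlier results of these data known. Alternatives were other pseudocounts, filters, scalings and variance models, a replicate block, brain in the fit, voom, and leaving out libraries or organs. Python 3.11.15 with pandas 2.3.3 was used otherwise. Promoters came from RefSeq (GRCm38.p6), matched for 3 of 3 shared genes.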

Additional observations from a re-analysis of the deposited data

How the results depend on the processing

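FOXA1 and FOXA2 were shared by the endoderm-lined organs under every alternative run, and EPB41L4B under all but those named with its values and a rule on the largest p of the 12 pairs. The counts of genes higher in endoderm-lined and mesodermal organs, 250 and 122, became 339 and 236 with a pseudocount of 0.1, 100 and 46 with a pseudocount of 5, 732 and 385 with no minimum difference, and 453 and 169 with voom. Leaving out 1 library at a time gave 230 to 259 and 111 to 135, with 2 to 3 shared genes on the endoderm-lined side and 0 on the other. Leaving out an organ asks less of a shared gene. Shared genes of the endoderm-lined side were then 18 without liver, 11 without lung, 5 without stomach, 6 without aorta, 4 without heart, 8 without kidney and 5 without spleen, and those of the mesodermal side 4 without lung (FBLN5, MSN and WNK1 among them), 1 without aorta (CYFIP2) and 1 without kidney (HDAC9). Genes called higher in mesodermal organs numbered 81 without liver, 313 without lung and 206 without spleen. Organ means that did not overlap, with no test, gave 75 and 20 genes. The largest p of the 12 pairs, adjusted over all genes, left FOXA1 and FOXA2. Deviations of same-numbered libraries of different organs correlated weakly, with r from -0.062 to 0.13 (median 0.024), against -0.106 to 0.0771 (median -0.0173) for other numbers. By these deviations 16 of 21 libraries were closest to their own number, and the labels do not say what the numbers mark. A fit with the replicate block gave 251 and 122 genes and 3 shared genes. Of 1763 further values of 42 named genes, 28 fell below a threshold that the main value passed, 37 rose past one, 32 of genes not called changed sign by more than 1 SE, and none changed direction where called. SENCR, with 11 of the 28, was the least stable. Median-ratio scaling shifted the median difference of all genes from 0.06 to -0.08. At 193902 to 607972 reads per library, low genes rest on few reads.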

Other observations

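Genes of the secretory pathway, a list put together after the values had been seen and so without a test, lay mostly on the endoderm-lined side. The table held 75, of which 49 passed the filter, 45 of these had a difference above 0 (55.7% of all genes) and 10 were called higher (6.47% of all genes), with a median of 0.74 beside 0.06 for all genes. Liver was higher than all 4 mesodermal organs for 7 of the 49, lung for none and stomach for 1, beside 3.0%, 2.85% and 2.56% of all genes. The called genes included COPZ1 of the COPI coat (41.2 to 62.7 FPKM in liver, 14.3 to 22.1 in lung, 29.0 to 43.2 in stomach, and 0 to 17.4 in the mesodermal libraries), the oligosaccharyltransferase subunit STT3A, the chaperones HSPA5 and HSP90B1 and the secretory regulator XBP1. Heart was the lowest organ for STT3A (5.34 to 9.24 FPKM, against 34.6 to 56.5 in aorta, kidney and spleen) and XBP1 (0 to 5.89). Without heart 5 of 49 were called, beside 219 of 3744 genes in all. Median-ratio scaling left 4 of 49 (179 of 3864 genes in all) and quantile normalization 4 of 49 (191 of 3864).

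A list of scaffold proteins of the cell cortex and junctions, put together after EPB41L4B had been seen and so also without a test, had no common direction. The table held 31, of which 23 passed the filter, with 8 called higher in the endoderm-lined organs, beside 6.47% of all genes (among them EPB41L4B, CASK, MAGI1, TJP1 and the polarity gene PARD3), 1 called lower, beside 3.16% of all genes (FRMD5), and a median difference of -0.01.

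FLI1 was lowest in replicate 2 of liver, lung, stomach, aorta, heart, kidney and spleen alike, at 30.1, 325, 27.7, 140, 115, 56.2 and 484 FPKM, and in brain (21.9). SENCR was lowest in replicate 2 of lung (32.6), stomach (4.64), aorta (25.1), kidney (31.2), spleen (14) and brain (1.20), but not of liver (17.9) or heart (59.8). The labels do not say whether libraries with the same number share an animal or a batch.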
